A study of Mus musculus with 6 samples.

Results

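UTX, the product of the X-linked gene Kdm6a, was compared with its control in muscle satellite cells sorted 30 h after injury. The comparison set 2 libraries labelled Utx KO against 2 labelled Tdt Control, which are 4 of the 6 libraries of the series. The other 2 libraries, labelled Jmjd3 KO, entered the fit for its estimate of spread and are cited where the knockouts were compared directly. All the mice were adult C57BL/6 animals that received cardiotoxin, a snake venom toxin that destroys muscle fibres, in the tibialis anterior and gastrocnemius muscles of the hind limb, and the satellite cells were collected by fluorescence-activated cell sorting. The labels give the genotypes as Utx KO and Tdt Control and the series title speaks of UTXscKO. The driver of the deletion, the meaning of Tdt, the sex of the mice and the number of mice behind a library are not given in the sources used here, so the p-values measure only the spread between these libraries, which may be technical.

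UTX removes methyl groups from lysine 27 of histone H3, a mark laid down by the Polycomb complex PRC2 at silent genes. It is also a subunit of the enzyme complexes that methylate lysine 4 of histone H3 at enhancers, and its paralogs are the lysine 27 demethylase JMJD3, encoded by Kdm6b, and the Y-linked UTY. Satellite cells are the stem cells of skeletal muscle. They lie quiescent beside the fibres, enter the cell cycle after injury under the transcription factors Myf5 and MyoD, and differentiate under myogenin.

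The libraries held 53750675 and 59768154 estimated reads for Utx KO and 77675388 and 65893124 for Tdt control, and the log levels of replicates correlated at 0.990 across genes in Utx KO and 0.991 in Tdt control. Levels are given as CPM (counts scaled to a common library total), normalised by the trimmed mean of M values (TMM), where 1 gene is followed between libraries, and as TPM, which allow for transcript length, where genes are compared with each other. Pax7, which marks satellite cells, stood at 134 and 145 CPM in Utx KO and at 139 and 136 CPM in Tdt control. The summed level of 8 satellite cell markers was 3828 and 3896 CPM in Utx KO and 3813 and 3841 CPM in Tdt control, and these sums overlapped. Transcripts of mature fibres were also present in the sort, with sums over 23 genes of 6814 and 8159 CPM in Utx KO and of 7506 and 7913 CPM in Tdt control. In bulk RNA of this kind, fewer cells of a type and less RNA per cell cannot be told apart.

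Kdm6a (chrX:18162575-18279936, GRCm38) had 7.68 and 7.38 CPM in Utx KO and 32.8 and 34.0 CPM in Tdt control. Both knockout libraries were far below both controls, a 4.44-fold lower level (log2 fold change -2.15 ± 0.06 SE, adjusted p = 1.02e-05). Its main coding transcript, Kdm6a-201, had 0.669 and 0.505 TPM in Utx KO and 2.47 and 2.74 TPM in Tdt control. Kdm6b did not pass the test, with 23 and 22.2 CPM in Utx KO and 29.9 and 22.7 CPM in Tdt control (log2 fold change -0.22 ± 0.11, adjusted p = 0.398). Uty had 6.75 and 6.03 CPM in Utx KO and 4.15 and 5.09 CPM in Tdt control, and this difference did not pass either (log2 fold change 0.47 ± 0.17, adjusted p = 0.238). Of 18 listed UTX partners and lysine 4 methyltransferase subunits, Kdm6a was the 1 member called. Of 27 listed regulators of lysine 27 methylation, 1 rose, Epop, an Elongin-binding partner of PRC2, at 25.9 and 24.3 CPM in Utx KO against 19.2 and 19.1 CPM in Tdt control.

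Loss of Kdm6a transcript went with small changes in few genes. Of 17084 genes tested, 293 passed an adjusted p of 0.05 in edgeR's quasi-likelihood test (1.72%), of which 135 were higher in Utx KO (0.79%) and 158 lower (0.925%). The median size of a called change was 1.39-fold, 48 genes changed at least 2-fold (14 higher, 34 lower), and 186 of the 293 changed by under 1.5-fold. The called genes included 276 that code for proteins. The 2 libraries of 1 group lay wholly above or below those of the other in 7796 of the genes tested (45.6%), and in 293 of the 293 called genes. Where separation of the groups is mentioned for a named gene below, it is therefore no support beyond the call. The authors' deposited table called 629 genes for the same contrast, 267 of which were also called here, with the same sign for 267. These make up 42.4% of the calls in the authors' deposited table and 91.1% of the calls given here.

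**Figure D1:**
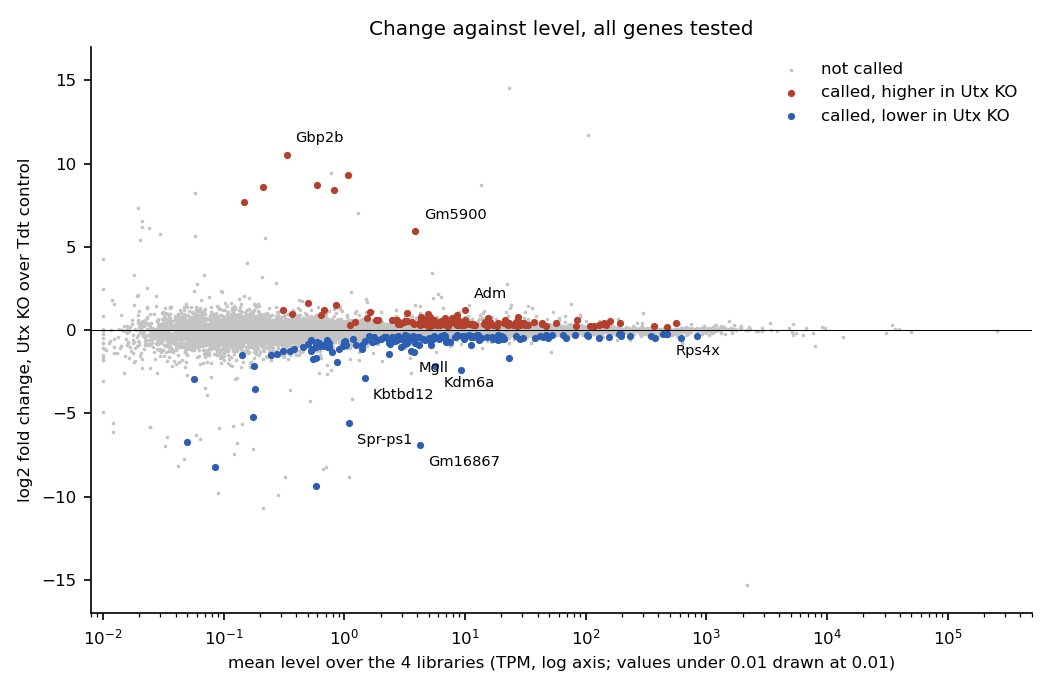
Log2 fold change of Utx KO over Tdt control (vertical axis) against the mean TPM over the 4 libraries (horizontal log axis) for the genes tested. Red points are the 135 genes called higher, blue points the 158 called lower and grey points the rest; most coloured points lie close to 0, and the few far from it are mostly at low levels.

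With 2 libraries a group, most calls depended on having every library. The groups of each called gene did not overlap, so leaving out a library could hardly reverse a direction. The unchanged direction of 293 of the 293 called genes, with each of the 6 libraries left out in turn, is therefore no support. The call itself stayed for 19 of them without the first Utx KO library (Utx 1), for 52 without the second (Utx 2), for 14 without the first Tdt control library (Tdt 1) and for 46 without the second (Tdt 2). Leaving out Jmjd3 KO replicate 1 or 2, which only lend their spread, left 88 or 84. With the mean transcript length of each gene in each library as an offset 120 of the 293 stayed called, and 109 did with only the 4 libraries compared in the fit. Groups of genes are therefore given with the number that stayed called in these fits. Counts of called members of a list are to be read beside 1.72% of all genes tested, 0.79% higher and 0.925% lower. Counts at an unadjusted p under 0.05 in edgeR are to be read beside 2768 of the 17084 genes tested. DESeq2, an alternative test, called 701 of the genes tested, and its counts are to be read beside that number. The lists were not tested as sets, and a single call in a list is no result about it.

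**Figure D2:**
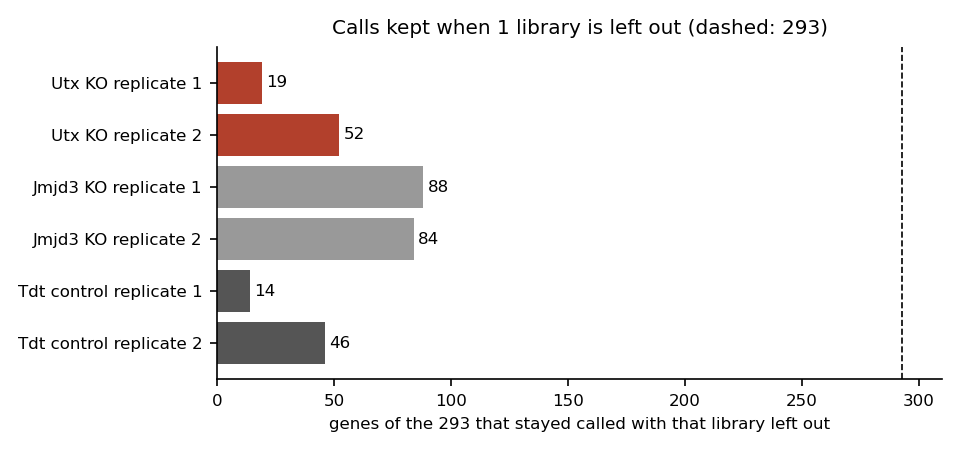
Number of the 293 called genes that stayed called (horizontal axis, genes) when the library named on the vertical axis was left out of the fit. The bars run from 14 without Tdt control replicate 1 to 88 without Jmjd3 KO replicate 1, all well short of the dashed line at 293.

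Kdm6a and 8 more genes stayed called without each of the 6 libraries. Kbtbd12 (chr6:88545114-88637950), a kelch and BTB domain gene, had 1.82 and 1.63 CPM in Utx KO and 12.7 and 13.0 CPM in Tdt control. Mgll (chr6:88724412-88828360), which encodes monoacylglycerol lipase and is the next tested gene along the chromosome, had 10.7 and 11.5 CPM in Utx KO and 26.1 and 27.2 CPM in Tdt control. Both fell, Kbtbd12 by 7.43-fold (log2 fold change -2.89 ± 0.09, adjusted p = 1.63e-05) and Mgll by 2.40-fold (-1.26 ± 0.07, adjusted p = 0.000548), with the groups wide apart. The Kbtbd12 change was smaller where transcript length was taken into account. Its log2 fold change was -1.61 with transcript lengths as offsets (adjusted p = 0.0247) and its level was 0.579 and 0.906 TPM in Utx KO against 2.17 and 2.26 TPM in Tdt control. Its log2 fold change in the authors' deposited table was -1.55. Reln, the gene of the secreted matrix protein reelin, was lower at 2.10 and 1.99 CPM in Utx KO against 5.54 and 5.83 CPM in Tdt control, although its adjusted p was 0.0888 when transcript lengths were used as offsets.

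Adm, which encodes the vasodilator peptide adrenomedullin, rose. Adm stood at 23.9 and 22.7 CPM in Utx KO and at 9.80 and 10.6 CPM in Tdt control, a 2.28-fold higher level (log2 fold change 1.19 ± 0.07, adjusted p = 0.0014). The processed pseudogene Gm5900 also rose, at 2.49 and 2.91 CPM in Utx KO against 0.0526 and 0.0304 CPM in Tdt control, and the pseudogene Spr-ps1 fell, at 0.0186 and 0.0340 CPM in Utx KO against 1.25 and 1.44 CPM in Tdt control. Gm16867 (chr14:69363504-69503362) fell the furthest of the 9, to 0.316 and 0.238 CPM in Utx KO, against 33.8 and 31.5 CPM in Tdt control (118-fold, adjusted p = 5.19e-07). It overlaps the end of Entpd4 (chr14:69337174-69367270), which encodes a nucleoside diphosphatase of the Golgi and fell to 35.7 and 36.9 CPM in Utx KO, against 64.4 and 69.5 CPM in Tdt control. Because the loci overlap, reads shared between Gm16867 and Entpd4 could be divided by the estimation, and the split between them is uncertain.

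A further 9 called genes had no estimated read in either library of 1 group, and their fitted fold changes are not used. Gbp2b, an interferon-inducible guanylate-binding GTPase, had 165 and 160 estimated reads in Utx KO and 0 and 0 in Tdt control, at least 137-fold higher when 3 counts over the control group are taken as the floor. Gm9887, AC134468.1, Mid1-ps1, Gsta1 and Gm21742 were likewise at 0 in Tdt control, and Gm7334, Gm38378 and Gm5850 were at 0 in Utx KO. Of the 9, 5 are annotated as pseudogenes, whose reads can be shared with near copies, and their counts are uncertain. Without Utx 1 none of the 9 stayed called, and without Tdt 1 only Gbp2b did.

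Among the 15 largest increases at a mean of at least 5 CPM were genes of several unlike functions. Genes named by Gm numbers or Rik clones, pseudogenes and genes whose groups overlapped were left out of this ranking. Cdkn1c, an imprinted inhibitor of cyclin-dependent kinases, had 7.35 and 10.7 CPM in Utx KO and 4.78 and 4.17 CPM in Tdt control (log2 fold change 1.01 ± 0.18, adjusted p = 0.0396). Myog, the gene of myogenin, had 14.3 and 12.9 CPM in Utx KO and 7.86 and 5.88 CPM in Tdt control (0.98 ± 0.16, adjusted p = 0.0309). In both genes the lower knockout library was above the higher control.

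Cdc42bpa, a kinase acting downstream of the GTPase Cdc42, had 102 and 88.6 CPM in Utx KO and 51.2 and 49.1 CPM in Tdt control (0.93 ± 0.09, adjusted p = 0.0093). Cd200, a surface glycoprotein that restrains myeloid cells, had 59.2 and 55.0 CPM in Utx KO and 30.1 and 34.7 CPM in Tdt control (0.82 ± 0.07, adjusted p = 0.00885). The groups were clearly separated in both. The rest of the 15 rose by 0.62 to 0.82 on the log2 scale and included Ccng2, an atypical cyclin linked to cell cycle arrest, Hdc, the histamine-forming enzyme, Prelp, a matrix proteoglycan, Kcns3, a potassium channel subunit, Hmox1, which degrades heme, Ahr, the aryl hydrocarbon receptor, and Wdcp. The call of Wdcp was lost with length taken into account, with an adjusted p of 0.356 when transcript lengths were used as offsets. In the authors' deposited table its adjusted p was 0.53. Of the 15 genes, 4 stayed called without Utx 1, 6 without Utx 2, 2 without Tdt 1 and 6 without Tdt 2, with adjusted p of the lost calls up to 0.170, while 11 did with transcript lengths as offsets and 10 with only the 4 libraries compared.

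**Figure D3:**
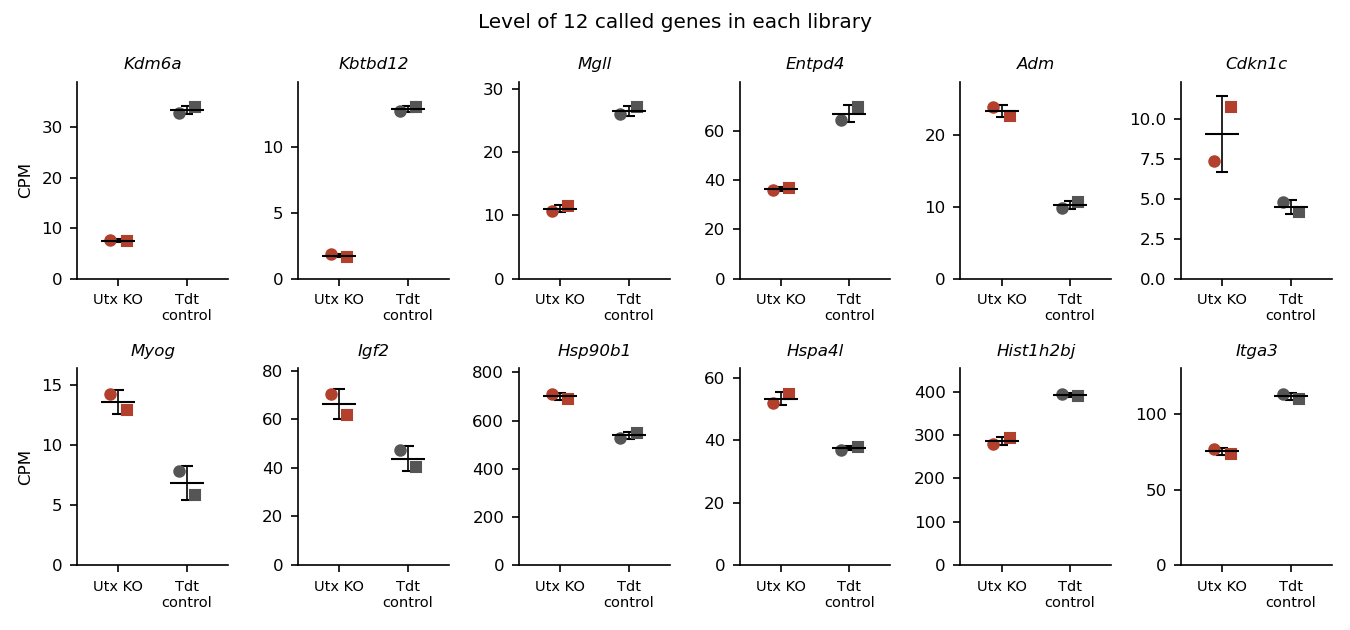
Level in CPM (vertical axis of each panel, from 0) of 12 called genes in the 2 Utx KO libraries (left, red) and the 2 Tdt control libraries (right, grey); circles are replicate 1, squares replicate 2, and bars the mean ± SD. The groups do not overlap in any panel, as in all 293 called genes. Relative to the level, the gap is wide in Kbtbd12 (1.82 and 1.63 CPM in Utx KO, 12.7 and 13.0 CPM in Tdt control). It is much smaller in Hist1h2bj (281 and 293 CPM in Utx KO, 396 and 389 CPM in Tdt control).

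The 15 largest decreases were ranked under the same limits, which left out Gm16867, a larger decrease than any of them. Beside Kdm6a, Mgll and Entpd4 they were in genes at low levels, Kbtbd12 included (a mean of 7.28 CPM over the 4 libraries). Chil3, a chitinase-like protein of macrophages and neutrophils, had 4.65 and 5.24 CPM in Utx KO and 10.8 and 13.7 CPM in Tdt control (log2 fold change -1.30 ± 0.14, adjusted p = 0.0111). Thy1, a surface glycoprotein of fibroblasts and lymphocytes, had 4.69 and 5.20 CPM in Utx KO and 10.6 and 9.53 CPM in Tdt control (-1.02 ± 0.14, adjusted p = 0.0213). Arnt2, a partner of basic helix-loop-helix PAS transcription factors, had 4.95 and 4.86 CPM in Utx KO and 10.2 and 8.88 CPM in Tdt control (-0.96 ± 0.10, adjusted p = 0.0098). In each both controls were above both knockout libraries. Nwd1, Susd5, Olfml2a, Apln, Myl9, Stac3, Fhad1 and Areg fell by 0.82 to 1.12 on the log2 scale. Of the 15 largest decreases, 5 stayed called without Utx 1, 10 without Utx 2, 5 without Tdt 1, 9 without Tdt 2, 10 with transcript lengths as offsets and 13 with only the 4 libraries compared.

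Several imprinted genes rose in Utx KO. Of 24 tested members of a list of imprinted genes, 6 rose (25%, beside 0.79% of all genes tested) and 0 fell, and 20 had a positive fold change, with a median of 0.17 on the log2 scale beside -0.0022 over the genes tested. H19, the maternally expressed noncoding RNA next to Igf2, had 362 and 401 CPM in Utx KO and 257 and 249 CPM in Tdt control (0.59 ± 0.06, adjusted p = 0.00941). Igf2, the insulin-like growth factor that promotes myoblast differentiation, had 70.5 and 61.9 CPM in Utx KO and 47.3 and 40.3 CPM in Tdt control (0.60 ± 0.09, adjusted p = 0.0283). Both neighbours at this locus were higher in both knockout libraries.

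Grb10, an adaptor that restrains insulin and IGF receptor signalling, had 362 and 365 CPM in Utx KO and 305 and 293 CPM in Tdt control (0.28 ± 0.04, adjusted p = 0.0299). Peg10, a retrotransposon-derived gene, had 43.5 and 45.5 CPM in Utx KO and 35.4 and 32.2 CPM in Tdt control (0.39 ± 0.06, adjusted p = 0.0279). Rian, a noncoding RNA of the Dlk1 cluster, had 20.7 and 17.0 CPM in Utx KO and 10.4 and 12.2 CPM in Tdt control (0.73 ± 0.12, adjusted p = 0.0309). Its neighbours Dlk1 (log2 fold change 0.33 ± 0.08, adjusted p = 0.116) and Meg3 (0.04 ± 0.21, adjusted p = 0.95) did not pass the test. H19 and Cdkn1c stayed called without Utx 1, and H19 and Rian without Utx 2, while 0 of the 6 stayed called without Tdt 1 or Tdt 2 (adjusted p from 0.0535 to 0.141). With only the 4 libraries compared in the fit, 5 of the 6 missed the threshold, with adjusted p up to 0.07, and Igf2 and Rian missed it with transcript lengths as offsets (adjusted p from 0.0569 to 0.0601).

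Of the chaperones of the endoplasmic reticulum, 6 rose by small amounts. These proteins fold secreted and membrane proteins, and their genes are induced by the transcription factors of the unfolded protein response, chiefly ATF6, through a promoter element called ERSE. Of 36 tested members of a list of such chaperones and response genes, 6 rose (16.7%, beside 0.79% of all genes tested) and 0 fell, and 29 had a positive fold change (median 0.08 on the log2 scale). Hspa5, which encodes BiP, the main chaperone of the compartment, had 1351 and 1405 CPM in Utx KO and 1151 and 1151 CPM in Tdt control (0.26 ± 0.04, adjusted p = 0.0267). Hsp90b1, which encodes GRP94, had 712 and 691 CPM in Utx KO and 528 and 550 CPM in Tdt control (0.38 ± 0.04, adjusted p = 0.0118). Pdia3 and Pdia6, protein disulfide isomerases, had 442 and 437 CPM and 281 and 283 CPM in Utx KO, against 344 and 378 CPM and 242 and 240 CPM in Tdt control.

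Sdf2l1, a partner of BiP, had 24.8 and 24.6 CPM in Utx KO and 18.8 and 20.6 CPM in Tdt control, and Creld2, a secreted disulfide isomerase, had 64.3 and 64.3 CPM in Utx KO and 54 and 54.3 CPM in Tdt control. The 6 genes rose by 0.23 to 0.38 on the log2 scale, with adjusted p up to 0.0485. Hsp90b1 alone stayed called without Utx 2 and without Tdt 2, and 0 of the 6 stayed called without Utx 1 or without Tdt 1 (adjusted p from 0.0602 to 0.225). Upper-quartile scaling ended the calls of Sdf2l1, Creld2 and Pdia6, with adjusted p from 0.0521 to 0.0541. Hspa5 and Hsp90b1 alone stayed called with transcript lengths as offsets, and 2 of the 6 with only the 4 libraries compared.

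The promoters of these 6 genes are shown because they can be read for the ERSE. Each line gives the 250 bases before the annotated start from RefSeq on GRCm38.p6, 5′ to 3′ on the strand of the gene, with capitals marking each match to CCAAT, 9 bases of any kind and CCACG, on either strand. The windows are chr10:86705445-86705694 on the minus strand (Hsp90b1), chr2:34771840-34772089 on the plus strand (Hspa5), chr12:17266339-17266588 on the plus strand (Pdia6), chr15:88819396-88819645 on the plus strand (Creld2), chr2:121413652-121413901 on the plus strand (Pdia3) and chr16:17132384-17132633 on the minus strand (Sdf2l1).
Hsp90b1: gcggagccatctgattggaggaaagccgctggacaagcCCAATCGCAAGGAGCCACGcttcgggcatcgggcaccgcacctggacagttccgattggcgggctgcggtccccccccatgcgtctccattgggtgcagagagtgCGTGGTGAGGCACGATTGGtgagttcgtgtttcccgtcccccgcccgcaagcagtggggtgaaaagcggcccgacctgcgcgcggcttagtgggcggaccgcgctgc
Hspa5: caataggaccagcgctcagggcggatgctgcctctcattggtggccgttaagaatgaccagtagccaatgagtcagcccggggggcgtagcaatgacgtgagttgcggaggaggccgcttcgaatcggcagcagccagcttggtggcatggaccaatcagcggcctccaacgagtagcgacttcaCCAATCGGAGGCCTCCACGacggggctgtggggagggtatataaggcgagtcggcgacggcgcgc
Pdia6: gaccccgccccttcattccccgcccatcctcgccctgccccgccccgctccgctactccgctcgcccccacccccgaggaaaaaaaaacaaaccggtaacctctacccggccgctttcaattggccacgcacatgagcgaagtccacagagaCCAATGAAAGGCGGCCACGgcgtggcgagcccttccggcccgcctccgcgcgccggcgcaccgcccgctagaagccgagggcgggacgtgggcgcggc
Creld2: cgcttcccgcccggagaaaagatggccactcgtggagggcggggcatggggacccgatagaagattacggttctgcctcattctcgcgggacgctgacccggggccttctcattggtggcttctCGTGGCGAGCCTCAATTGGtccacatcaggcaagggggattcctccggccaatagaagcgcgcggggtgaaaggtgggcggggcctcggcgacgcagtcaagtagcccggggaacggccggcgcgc
Pdia3: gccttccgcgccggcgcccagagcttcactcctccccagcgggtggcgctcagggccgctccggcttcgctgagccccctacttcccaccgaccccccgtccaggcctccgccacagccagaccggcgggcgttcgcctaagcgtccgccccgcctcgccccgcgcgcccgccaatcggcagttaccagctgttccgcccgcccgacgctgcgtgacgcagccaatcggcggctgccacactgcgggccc
Sdf2l1: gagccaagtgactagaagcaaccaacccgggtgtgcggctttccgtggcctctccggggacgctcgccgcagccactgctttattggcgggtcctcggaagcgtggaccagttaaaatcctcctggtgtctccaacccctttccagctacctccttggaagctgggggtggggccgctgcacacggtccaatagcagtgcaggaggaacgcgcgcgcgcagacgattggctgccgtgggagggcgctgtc
Hsp90b1 held 2 matches, Hspa5, Pdia6 and Creld2 held 1 each, and Pdia3 and Sdf2l1 held none in this window. The element was in 37 of 32851 RefSeq promoter windows of this length (0.113%), and in 16 of the 11321 tested genes that had an entry (0.141%). Among the 29 tested list members with an entry it was in 8, the 4 above and Calr, Canx, Dnajc3 and Syvn1, which were not called. Of the 96 genes called higher with an entry 4 held it, and of the 101 called lower 0 did. A match is a description of the sequence and shows neither binding nor a cause.

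Several cytosolic heat shock chaperones and enzymes of collagen assembly rose as well. Of 30 tested heat shock genes, 3 rose (10%, beside 0.79% of all genes tested) and 0 fell (median 0.11 on the log2 scale, 24 positive). Hspa4l, a nucleotide exchange factor of HSP70, had 51.7 and 54.8 CPM in Utx KO and 36.9 and 37.8 CPM in Tdt control (0.51 ± 0.05, adjusted p = 0.0093). Hsph1, of the same family, had 295 and 324 CPM in Utx KO and 227 and 228 CPM in Tdt control (0.44 ± 0.06, adjusted p = 0.0179), and Hsp90aa1, the inducible HSP90, had 1904 and 1864 CPM in Utx KO and 1611 and 1668 CPM in Tdt control (0.20 ± 0.03, adjusted p = 0.0343). Each was above both controls in both knockout libraries.

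Of 36 tested collagen and basement membrane genes 3 rose and 1 fell (11.1% called, beside 1.72% of all genes tested), and those that rose encode proteins that modify or escort collagen inside the endoplasmic reticulum and not collagen chains. Serpinh1, the collagen chaperone HSP47, had 680 and 726 CPM in Utx KO and 514 and 545 CPM in Tdt control (0.41 ± 0.05, adjusted p = 0.0182). Plod1, a lysyl hydroxylase, and P4ha1, a prolyl hydroxylase, rose by 0.33 and 0.38 on the log2 scale. Col18a1, the 1 collagen chain called, fell to 22.7 and 24.6 CPM in Utx KO, against 30.8 and 31.2 CPM in Tdt control. Of Hspa4l, Hsph1, Hsp90aa1, Serpinh1, Plod1 and P4ha1, Hspa4l alone stayed called without Utx 1, without Utx 2 and without Tdt 2, and 0 without Tdt 1, while 5 did with transcript lengths as offsets and 3 with only the 4 libraries compared.

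Several replication-dependent histone genes fell. Of 37 tested members 6 fell (16.2%, beside 0.925% of all genes tested) and 0 rose, and 32 had a negative fold change, with a median of -0.22 on the log2 scale. These histones are made during DNA synthesis. Hist1h2bj had 281 and 293 CPM in Utx KO and 396 and 389 CPM in Tdt control (-0.45 ± 0.05, adjusted p = 0.00941). Hist2h3c2 had 309 and 336 CPM in Utx KO and 451 and 433 CPM in Tdt control (-0.46 ± 0.07, adjusted p = 0.0249), and Hist1h2bc had 236 and 242 CPM in Utx KO and 304 and 312 CPM in Tdt control (-0.36 ± 0.05, adjusted p = 0.0179). Hist2h2ac, Hist2h4 and Hist1h2bh fell by 0.33, 0.31 and 0.30.

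Histone genes are near copies of each other, so the assignment of reads among them is uncertain. The called Hist1 genes lie on chromosome 13 and the Hist2 genes on chromosome 3. No gene of the DNA replication list (46 tested, median -0.04) or of the list for G2 and mitosis (40 tested, median -0.03) was called by edgeR, with 3 and 2 lower at an unadjusted p under 0.05, and DESeq2 called 2 and 0. Of the 8 called histone genes including Hist2h2bb and Hist1h2bm, which are not in the list, 0 stayed called without Utx 1 or without Tdt 1, and Hist1h2bj alone without Utx 2 or Tdt 2 (adjusted p up to 0.255), while 4 did with transcript lengths as offsets and 3 with only the 4 libraries compared.

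Several genes that restrain the cell cycle and growth rose. Of 25 tested G1 regulators, 3 rose (12%, beside 0.79% of all genes tested) and 0 fell although 18 had a negative fold change (median -0.07 on the log2 scale), and the 3 were inhibitors of cyclin-dependent kinases. Beside Cdkn1c these were Cdkn1b, which encodes p27, at 32.0 and 31.5 CPM in Utx KO against 24.6 and 24.8 CPM in Tdt control (0.36 ± 0.05, adjusted p = 0.0182), and Cdkn2d, which encodes p19, at 16.3 and 17.8 CPM in Utx KO against 12.3 and 11.9 CPM in Tdt control (0.49 ± 0.07, adjusted p = 0.0263). Cdkn1a, which encodes p21, did not pass the test, with 164 and 159 CPM in Utx KO and 188 and 182 CPM in Tdt control (-0.20 ± 0.05, adjusted p = 0.107).

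Further genes of this kind were picked out after their values were seen. Ddit4 and Deptor, inhibitors of mTOR signalling, rose, with 57.0 and 60.6 CPM and 86.0 and 74.4 CPM in Utx KO, against 35.2 and 40.7 CPM and 56.1 and 58.4 CPM in Tdt control. Mxd4, a MYC antagonist, and Hbp1, a transcriptional repressor of cell cycle genes, rose by 0.39 ± 0.07 and 0.32 ± 0.05 on the log2 scale. Of Cdkn1b, Cdkn1c, Cdkn2d, Ccng2, Mxd4, Hbp1, Ddit4 and Deptor, 1 stayed called without Utx 1, 1 without Utx 2, 0 without Tdt 1, 1 without Tdt 2, 6 with transcript lengths as offsets and 2 with only the 4 libraries compared. The calls lost with lengths as offsets were Mxd4 and Hbp1 (adjusted p from 0.153 to 0.249).

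**Figure D4:**
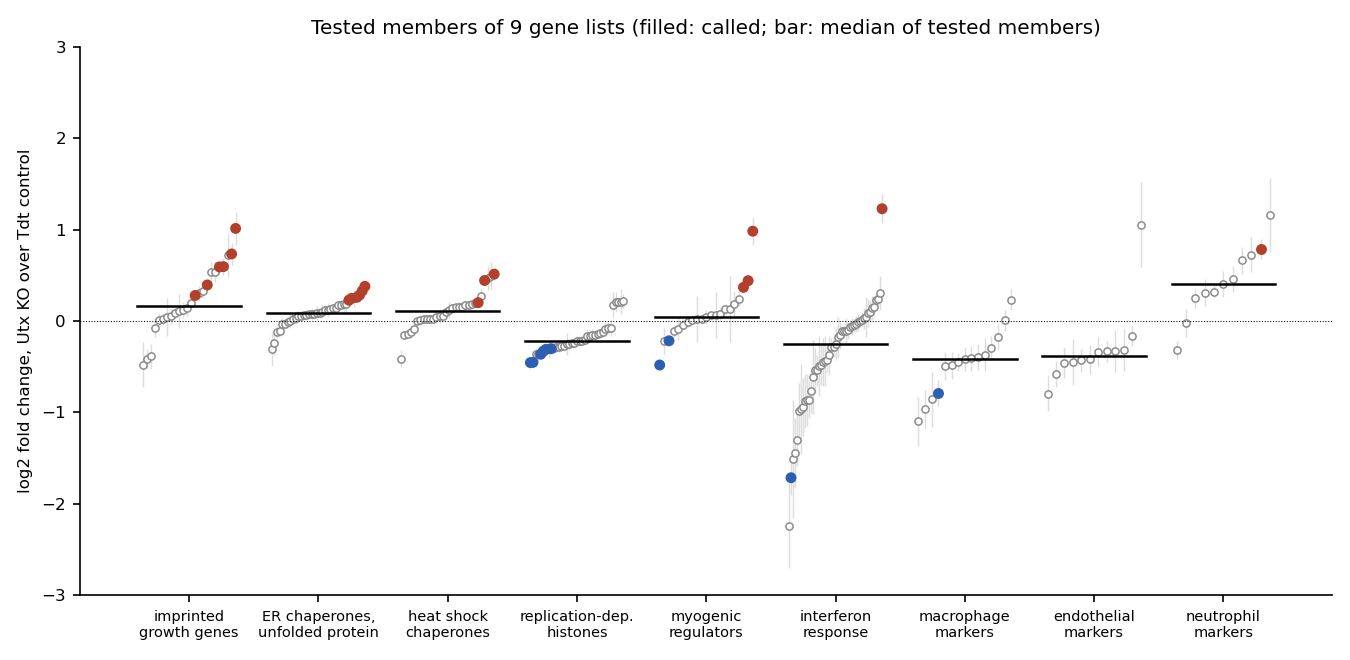
Log2 fold change of Utx KO over Tdt control (vertical axis, grey bars ± SE) for the tested members of 9 gene lists, ordered within each list. Filled red and blue points were called higher and lower, open points were not called and black bars are medians; the medians run from -0.42 for macrophage markers to 0.40 for neutrophil markers, and the called imprinted, chaperone and histone genes lie at 1 end of their lists.

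The myogenic regulators changed in both directions. Of 21 tested, 3 rose and 2 fell (23.8% called, beside 1.72% of all genes tested). Myf5 had 83.7 and 82.6 CPM in Utx KO and 60.3 and 62.1 CPM in Tdt control (0.44 ± 0.05, adjusted p = 0.0153). Six4, a homeobox factor that acts upstream of the myogenic factors, had 47.9 and 48.0 CPM in Utx KO and 38.2 and 36.1 CPM in Tdt control (0.37 ± 0.05, adjusted p = 0.0216). Together with Myog, both were higher in both knockout libraries.

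Myod1 had 407 and 403 CPM in Utx KO and 469 and 473 CPM in Tdt control (-0.22 ± 0.04, adjusted p = 0.0461), and Id1, an inhibitor of MyoD and a target of BMP signalling, had 110 and 108 CPM in Utx KO and 157 and 147 CPM in Tdt control (-0.48 ± 0.06, adjusted p = 0.0151). Both fell with little spread between replicates. Of 30 tested genes of quiescence and Notch signalling 3 rose (10%, beside 0.79% of all genes tested) and 0 fell. The 3 were Cdkn1b, Cdkn1c and Fgfr4, a fibroblast growth factor receptor of myoblasts (133 and 115 CPM in Utx KO, 87.9 and 89.3 CPM in Tdt control).

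Muscle genes outside the regulators also moved both ways. Musk, the kinase that organises the neuromuscular junction, rose, with 75.2 and 73.9 CPM in Utx KO against 55.3 and 51.6 CPM in Tdt control (0.48 ± 0.06, adjusted p = 0.0153). Megf10, an engulfment receptor of satellite cells, rose, with 77.4 and 75.3 CPM in Utx KO against 54.9 and 57.1 CPM in Tdt control (0.45 ± 0.05, adjusted p = 0.0161). Adam12, Itm2a and Prox1, which have known roles in myoblasts or their fate and were picked out after their values were seen, rose by 0.42 to 0.45. Stac3 and Chrnd, a component of excitation-contraction coupling and a subunit of the acetylcholine receptor, fell by 0.87 and 0.61, and Tnnt3, fast troponin T, was the 1 of 23 mature fibre genes called, with 345 and 377 CPM in Utx KO against 441 and 466 CPM in Tdt control. Of Myf5, Myog, Six4, Myod1, Id1, Chrnd, Tnnt3, Stac3, Musk, Megf10, Fgfr4, Fgfr1, Adam12, Itm2a and Prox1, 0 stayed called without Utx 1 or without Tdt 1, 2 without Utx 2, 1 without Tdt 2, 10 with transcript lengths as offsets and 9 with only the 4 libraries compared. Myod1, Chrnd, Tnnt3, Stac3 and Fgfr4 were the calls lost with lengths as offsets (adjusted p from 0.0566 to 0.108).

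A few receptors and ligands of several signalling pathways rose. Of 44 tested genes of TGF-beta, activin and BMP signalling, 3 rose and 1 fell (9.09% called, beside 1.72% of all genes tested). Bmp6 and Bmp4, BMP ligands, had 25.8 and 25.4 CPM and 29.6 and 27.9 CPM in Utx KO, against 15 and 18.4 CPM and 21.6 and 23 CPM in Tdt control. Smad3, which carries the TGF-beta signal, rose by 0.24 ± 0.04 on the log2 scale, and Bmper, a secreted BMP-binding protein outside the list, rose by 0.54 ± 0.06. The 1 that fell was Id1, a gene that BMP signals induce.

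Of 32 tested growth factor receptor genes and ligands 3 rose (9.38%, beside 0.79% of all genes tested) and 0 fell. The 3 were Fgfr4, Igf2 and Fgfr1 (197 and 199 CPM in Utx KO, 163 and 156 CPM in Tdt control). Of 39 tested Wnt genes, 2 rose and 1 fell (7.69% called, beside 1.72% of all genes tested). Fzd7, the receptor for Wnt7a in satellite cells, had 22.6 and 22.1 CPM in Utx KO and 16.5 and 15.3 CPM in Tdt control, Ror1, a receptor for Wnt5a, had 56.0 and 49.6 CPM in Utx KO and 38 and 38 CPM in Tdt control, and Tcf7, a nuclear effector, fell by 0.28 ± 0.05. Of Bmp6, Bmp4, Smad3, Id1, Bmper, Fzd7, Ror1, Tcf7 and Igf2, 0 stayed called without Utx 1 or without Tdt 1, 1 without Utx 2, 2 without Tdt 2, 4 with transcript lengths as offsets and 4 with only the 4 libraries compared, and Smad3 also missed the threshold under upper-quartile scaling (adjusted p = 0.0524).

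Several genes known as targets of hypoxia rose, while most glycolytic genes did not. Of 26 tested members of the list for glycolysis and hypoxia 2 rose (7.69%, beside 0.79% of all genes tested) and 0 fell. The 2 were Ddit4 and Hk2, a hexokinase, the second of which had 287 and 270 CPM in Utx KO and 229 and 217 CPM in Tdt control (0.32 ± 0.05, adjusted p = 0.0366). The median of the list was 0.05 on the log2 scale. Outside the list, and picked out after their values were seen, Adm, P4ha1, Hilpda, Ndrg1 and Ak4 rose. Hilpda, a lipid droplet protein, had 36 and 34.8 CPM in Utx KO and 24.6 and 25.6 CPM in Tdt control (0.50 ± 0.05, adjusted p = 0.00939), and Ndrg1 had 85.7 and 73.7 CPM in Utx KO and 55.8 and 50.8 CPM in Tdt control (0.58 ± 0.09, adjusted p = 0.0269).

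The core letters of the hypoxia response element, ACGTG, searched on both strands and over any overlap, occurred in the 250 bases before the start of 28 of 96 genes called higher (29.2%), 17 of 101 called lower (16.8%) and 2769 of 11321 tested (24.5%). The share in genes called higher was thus near that of the genes tested. Of 37 tested genes of fatty acid synthesis and lipid handling 2 rose, Plin3, a lipid droplet coat protein, and Abca1, a cholesterol exporter, and 1 fell, Mgll (8.11% called, beside 1.72% of all genes tested). None of 25 cholesterol synthesis genes was called by edgeR, though 21 were positive (median 0.12), 4 of them at an unadjusted p under 0.05, and DESeq2 called 1. Of Adm, Ddit4, Hilpda, Ndrg1, Ak4, Hk2, P4ha1, Plin3, Abca1, Mgll, Hmox1 and Ahr, 2 stayed called without Utx 1 or without Tdt 1, 6 without Utx 2, 4 without Tdt 2, 6 with transcript lengths as offsets and 6 with only the 4 libraries compared.

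Calls among immune genes were few and went both ways. Of 47 tested interferon response genes 1 rose and 1 fell, beside 0.79% and 0.925% of all genes tested, so this count is no result about the list, and 36 were negative (median -0.25 on the log2 scale). Iigp1, an immunity-related GTPase, had 0.856 and 0.680 CPM in Utx KO and 2.70 and 2.34 CPM in Tdt control (-1.72 ± 0.19, adjusted p = 0.0131). Stat2, a transcription factor of the interferon pathway, had 4.43 and 5.76 CPM in Utx KO and 2.25 and 2.09 CPM in Tdt control (1.23 ± 0.16, adjusted p = 0.0182). These genes moved in opposite directions, with no overlap between groups in either.

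Of 19 tested class I genes, B2m, the light chain of class I molecules, fell to 17.4 and 15.3 CPM in Utx KO, against 22.8 and 23.9 CPM in Tdt control, and Pdia3, of the peptide-loading complex, rose. Outside these lists, and picked out after their values were seen, Cd74, H2-Q6, Ifitm3, Ctss, Cd83 and Chil3 fell by 0.42 to 1.30. Of 37 chemokine and NF-kB target genes, Cxcl1, which attracts neutrophils, rose, with 144 and 164 CPM in Utx KO against 104 and 108 CPM in Tdt control, and Ccl7, which attracts monocytes, fell, with 11.2 and 11.7 CPM in Utx KO against 14.8 and 17.9 CPM in Tdt control. The class I and chemokine lists each held 1 higher and 1 lower gene, beside 0.79% and 0.925% of all genes tested. These counts are no result about the lists.

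Markers of leukocytes moved beside these genes. Of 15 macrophage and monocyte markers, none of which was at 0 in all 4 libraries, 1 fell, Fcgr1, and 13 of 15 were negative (median -0.42). Their summed level was 188 and 221 CPM in Utx KO and 211 and 257 CPM in Tdt control, so that the sums overlapped. Of 11 tested neutrophil markers 1 rose, Hdc, and 9 were positive (median 0.40), with sums over 12 matched markers of 231 and 264 CPM in Utx KO and of 178 and 192 CPM in Tdt control. The neutrophil sums did not overlap. By edgeR at an unadjusted p under 0.05, 10 macrophage markers were lower and 0 higher, and 8 neutrophil markers higher and 1 lower. Over all genes tested, 2768 of 17084 passed that level in either direction. A single call in either list, beside 1.72% of all genes tested, is no result about the list.

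Hdc itself had 22.6 and 25.4 CPM in Utx KO and 15 and 12.8 CPM in Tdt control (0.79 ± 0.11, adjusted p = 0.0239). The part of leukocytes in the changes of Cxcl1, Chil3, Cd74, Ctss and the interferon genes was not tested. Lymphoid markers, 10 genes of which 1 was at 0 in the 4 libraries, summed to 0.223 and 0.170 CPM in Utx KO and to 0.329 and 0.273 CPM in Tdt control and none was tested. Of Iigp1, Stat2, B2m, H2-Q6, Cd74, Ifitm3, Cxcl1, Ccl7, Fcgr1, Hdc, Gbp2b, Chil3, Ctss and Cd83, 1 stayed called without Utx 1, 2 without Utx 2, 2 without Tdt 1, 3 without Tdt 2, 8 with transcript lengths as offsets and 8 with only the 4 libraries compared.

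Several genes that are best known from vessels and their mural cells fell. Picked out after their values were seen, Ednra, an endothelin receptor of vascular smooth muscle, had 2.33 and 1.90 CPM in Utx KO and 5.33 and 5.21 CPM in Tdt control (-1.32 ± 0.13, adjusted p = 0.0093). Apln, the peptide ligand apelin, had 4.09 and 3.84 CPM in Utx KO and 7.38 and 7.39 CPM in Tdt control (-0.90 ± 0.09, adjusted p = 0.00941). The knockout libraries lay below both controls in each. Ednrb, Mcam, Cd93, Acvrl1, Nrp2 and Efnb2 fell by 0.33 to 0.65. Ngfr, the 1 called of 7 tested Schwann cell markers, fell by 0.96.

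None of 12 endothelial markers or 9 mural markers was called by edgeR, and 11 and 9 of them were negative (medians -0.38 and -0.39), 6 of each at an unadjusted p under 0.05, and DESeq2 called 1 and 2. The endothelial sums were 67.6 and 58.9 CPM in Utx KO and 77.2 and 85.4 CPM in Tdt control, and the mural sums were 436 and 455 CPM in Utx KO and 487 and 487 CPM in Tdt control, so that both sums were lower in the knockout libraries with no overlap. Fibro-adipogenic markers summed to 589 and 606 CPM in Utx KO and to 584 and 636 CPM in Tdt control, and tenocyte markers to 2120 and 2202 CPM in Utx KO and to 2508 and 2375 CPM in Tdt control, and edgeR called none of the 10 and 6 tested, where 6 and 1 passed an unadjusted p under 0.05 and DESeq2 called 3 and 0. None of the endothelial, mural, fibro-adipogenic or tenocyte markers was at 0 in all 4 libraries. The part of these cells in the changes was not tested. Of Apln, Ednra, Ednrb, Mcam, Cd93, Acvrl1, Thy1, Efnb2, Nrp2 and Ngfr, 1 stayed called without Utx 1, 2 without Utx 2, 0 without Tdt 1, 2 without Tdt 2, 4 with transcript lengths as offsets and 5 with only the 4 libraries compared. Ednrb, Mcam, Cd93, Acvrl1, Nrp2 and Efnb2 were the 6 lost with lengths as offsets (adjusted p from 0.0527 to 0.351).

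Several adhesion, contractile and matrix genes fell. Of 28 tested integrin and adhesion genes 2 fell (7.14%, beside 0.925% of all genes tested) and 0 rose. Itga3, a laminin-binding integrin subunit, had 77.1 and 73.9 CPM in Utx KO and 114 and 110 CPM in Tdt control (-0.57 ± 0.06, adjusted p = 0.0111), and Itga6, another laminin receptor subunit, had 25 and 24.2 CPM in Utx KO and 32.2 and 30.2 CPM in Tdt control (-0.34 ± 0.05, adjusted p = 0.0309). Of 39 tested actin and contractility genes 3 fell (7.69%, beside 0.925% of all genes tested) and 0 rose. Cald1, Myl9 and Rhob fell by 0.28, 0.89 and 0.27.

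Mylk, Nes, Dysf, Mmp2, Bgn and Fbln2, which encode myosin light chain kinase, nestin, the membrane repair protein dysferlin, a gelatinase, biglycan and fibulin-2, were picked out after their values were seen and fell by 0.40 to 0.75. Mmp2 had 23.5 and 27.8 CPM in Utx KO and 38.8 and 44.5 CPM in Tdt control. Areg and Hbegf, ligands of the EGF receptor, fell by 0.82 and 0.37, and Cemip2, a cell-surface hyaluronidase and the 1 called of 19 tested hyaluronan genes (beside 1.72% of all genes tested), by 0.29. Of these 15 genes, Col18a1 included, 0 stayed called without Utx 1 or without Tdt 1, 4 without Utx 2, 2 without Tdt 2, 4 with transcript lengths as offsets and 4 with only the 4 libraries compared.

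The other lists held 0 or 1 to 3 called genes, beside 1.72% of all genes tested, and a single call in a list of 30 to 50 genes is near that share and no result about the list. Among 36 immediate early genes Ier3 rose by 0.39 and Klf2 and Fosb fell by 0.43 and 0.48, with Fosb at 242 and 267 CPM in Utx KO and at 369 and 340 CPM in Tdt control. Gabarapl1, an autophagosome protein, rose by 0.40 as the 1 called of 38 lysosome and autophagy genes, Psmb2 fell by 0.46 as the 1 of 31 proteasome genes, Rps4x fell by 0.22 as the 1 of 50 cytosolic ribosomal protein genes, and Zfp365 fell by 0.39 as the 1 of 30 p53 targets. None of 45 ribosome biogenesis genes, 47 respiratory chain genes, 42 splicing factors, 23 Hox genes or 12 X-escape and Y-linked genes was called by edgeR. In the order given, 9, 7, 7, 4 and 2 of them passed an unadjusted p under 0.05, and DESeq2 called 2, 2, 1, 2 and 0. Over all 17084 genes tested, 2768 passed an unadjusted p under 0.05 and DESeq2 called 701. These counts are no result about the lists. Of Klf2, Ier3, Fosb, Epop, Psmb2, Gabarapl1, Rps4x and Zfp365, 0 stayed called without any 1 of the 4 libraries compared (adjusted p up to 0.181), while 5 did with transcript lengths as offsets and 5 with only the 4 libraries compared.

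In absolute terms the changes were spread over all but the most abundant RNAs. Of 5865 tested genes at a mean under 1 TPM 47 were called (0.801%), of 5985 at 1 to 10 TPM 140 (2.34%), of 4539 at 10 to 100 TPM 80 (1.76%), of 603 at 100 to 1000 TPM 26 (4.31%), and of 92 at 1000 TPM or more 0. The median fold of the called genes was 2.34 in the lowest of these classes and 1.26 at 100 to 1000 TPM, so that abundant genes were called for smaller changes. The 135 genes called higher summed to 4630 and 4506 TPM in Utx KO and to 3453 and 3625 TPM in Tdt control, and the 158 called lower summed to 5360 and 5339 TPM in Utx KO and to 6637 and 6962 TPM in Tdt control. These sums describe genes chosen by the same contrast and are no test.

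The most abundant called gene was Hist2h2bb at a mean of 742 TPM in Utx KO and 930 TPM in Tdt control. Below it came Hist1h2bj (531 TPM in Utx KO and 709 TPM in Tdt control), the predicted small RNA gene Gm22973 (647 TPM in Utx KO and 479 TPM in Tdt control), Hsp90aa1 (501 TPM in Utx KO and 445 TPM in Tdt control), Hist1h2bm (435 TPM in Utx KO and 511 TPM in Tdt control) and Rps4x (438 TPM in Utx KO and 504 TPM in Tdt control). Rbm3, a cold-inducible RNA-binding protein, had 396 TPM in Utx KO and 474 TPM in Tdt control. The 10 called genes of highest level were histones, chaperones, Rps4x, Rbm3 and Gm22973, and 0 of them stayed called without Utx 1 or without Tdt 1, 4 with transcript lengths as offsets and 3 with only the 4 libraries compared. A small set of structural RNAs dominated TPM, since the 20 highest genes took 54.9% and 55.1% of TPM in Utx KO and 56.9% and 53.9% in Tdt control, and none of them was called.

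Called genes lay on each autosome and on chromosomes X and Y, and were dense around Kbtbd12 on chromosome 6. Chromosome 12 had 22 of 635 tested genes called (3.46%), 18 of them higher, and chromosome 6 had 24 of 854 (2.81%). Shares on the other autosomes ran from 1.05% to 2.16%, and chromosome X had 11 of 543 (2.03%). On chromosome Y 2 of 10 were called, the pseudogenes Mid1-ps1 and Gm21742, which were at 0 in Tdt control. The higher genes on chromosome 12 included Ahr, Six4, Rian, Pdia6, Hsp90aa1 and Kcns3. Of the 18, 1 stayed called without Utx 1, 3 without Utx 2, 0 without Tdt 1, 3 without Tdt 2, 7 with transcript lengths as offsets and 6 with only the 4 libraries compared. Within 5 Mb of Kdm6a 1 of 32 tested genes was called, Kdm6a itself. Within 5 Mb of Kbtbd12, a window centred on a called gene, 11 of 118 were called, beside 1.72% of all genes tested. Of these, 10 were lower, among them Mgll, Dysf, Fbln2 and Spr-ps1. Of these 11, Kbtbd12, Mgll and Spr-ps1 stayed called without each library in turn.

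Transcript usage changed in few genes. The test asked whether the transcripts of 1 gene took different shares of its reads, in 6209 genes with at least 2 transcripts that each had 10 reads and 10% of the gene's reads in 2 libraries. Shares are given in percent of the TPM of the gene. By edgeR's diffSpliceDGE with Simes adjustment 28 genes were called (0.451%), and none of them was among the 293. At an unadjusted p under 0.05, 218 of the 6209 would pass. In 28 of the 28 a transcript was at 0 in both libraries of 1 group and above 0 in both of the other. How often this pattern occurred over the 6209 genes was not counted. The leading transcript was the same in the 4 libraries in 93.1% of the 6667 genes with at least 2 transcripts and 5 TPM, and in 119 of the 134 genes called for level that met this (88.8%).

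The clearest shift was in Pcbd2, a cofactor-recycling dehydratase. Pcbd2-201 took 100% and 100% in Utx KO and 0% and 0% in Tdt control, and Pcbd2-202 took 0% and 0% in Utx KO and 100% and 100% in Tdt control. The first 544 bases of these transcripts are identical and Pcbd2-202 is 546 bases long, so 2 bases at its end are the only difference between them. Dancr behaved alike, since Dancr-204 took 11.5% and 8.74% in Utx KO and 0% and 0% in Tdt control, Dancr-201 took 0% and 0% in Utx KO and 13.1% and 12% in Tdt control, and they share their first 2346 bases. The deposited files hold no measure of how certain the assignment of reads to such pairs is.

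In Axin1, a scaffold of the complex that degrades beta-catenin, Axin1-203 took 43.5% and 40.2% in Utx KO and 22.1% and 25.3% in Tdt control, while Axin1-202 took 0% and 0% in Utx KO and 15.6% and 14.2% in Tdt control (adjusted p = 3.70e-06). Axin1-201, the leading form, took 55.6% and 59.8% in Utx KO and 60.5% and 59.9% in Tdt control. Eci2, an enzyme of unsaturated fatty acid oxidation, shifted towards Eci2-211 with 50.4% and 39.9% in Utx KO against 31.1% and 22.3% in Tdt control. Sharpin, a subunit of the linear ubiquitin ligase, shifted towards Sharpin-201 with 33.1% and 42.0% in Utx KO against 19% and 24.0% in Tdt control. Pot1a, Cd2bp2, Slc6a8, Rprd2 and Fance made up the rest of the 10 largest shifts at 5 TPM or more, by 9.82 to 18.1 percentage points. Across the 28 genes the gaining and the losing transcript held a median of 98.1% of their 31-base words in common (the larger of the 2 shares of each pair).

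**Figure D5:**
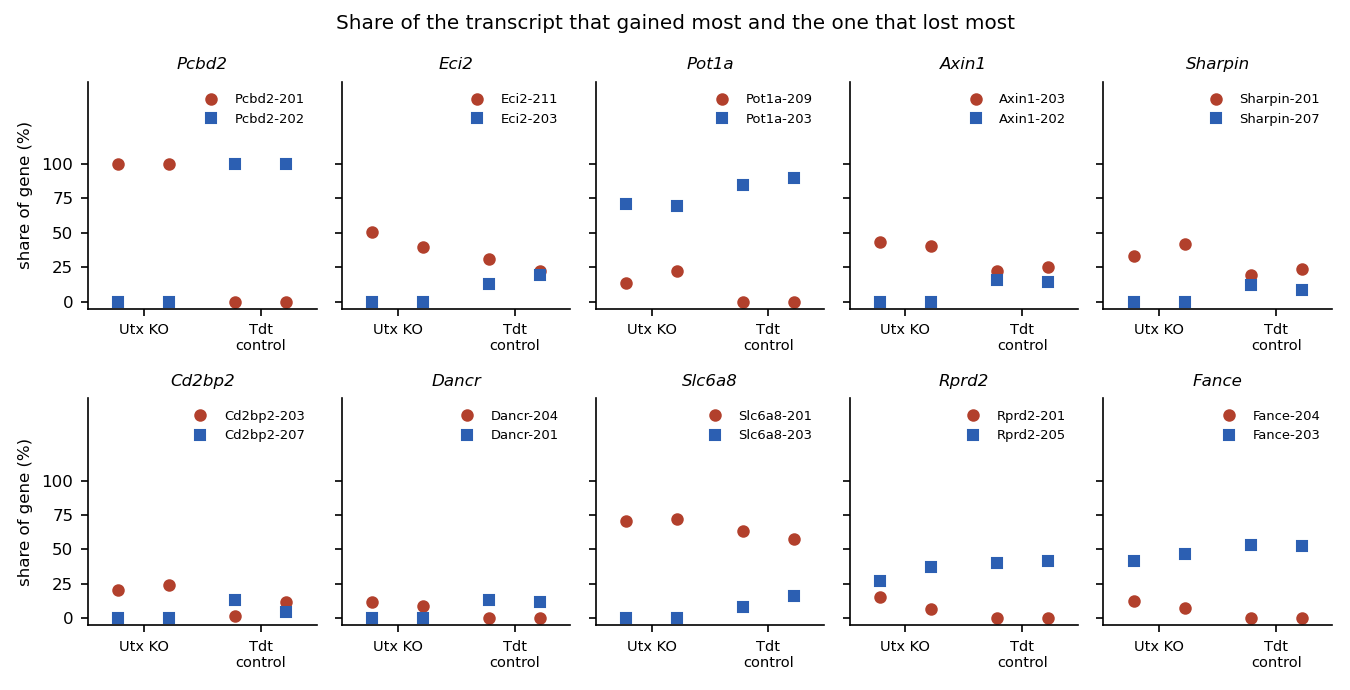
Share of a gene's TPM (vertical axis, %) taken by the transcript that gained most (red circles) and the one that lost most (blue squares) in the 2 Utx KO libraries (left) and the 2 Tdt control libraries (right), for the 10 genes with the largest called shifts at 5 TPM or more. In each panel at least 1 of the transcripts is at 0% in both libraries of a group, and the shift runs from 100 percentage points in Pcbd2 to 9.82 in Fance.

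The calls for usage depended on the method. limma's diffSplice called 10 genes, 2 of them among the 28, the F test of edgeR at the gene level called 104, and a limit of 20% in place of 10% on the share of a transcript left 13. Without Utx 1 or Utx 2, 52 or 40 genes were called, of which 13 or 12 were among the 28, and without Tdt 1 or Tdt 2, 43 or 54, of which 16 or 17 were. By limma, Pcbd2 passed with an adjusted p of 0.0266 and Axin1 did not, with 0.0671.

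A direct contrast of Utx KO with Jmjd3 KO asked which of these differences set the knockouts apart. Of the 293 genes called in Utx KO, 191 differed in it. The 293 were chosen with the same Utx KO libraries, so a share above that of all genes tested is partly built in. Against the same controls, Jmjd3 KO had 513 genes called (3% of those tested). Of the 293, 48 were called in the same direction in Jmjd3 KO and 11 in the opposite one. The shared controls favour the same direction, so these counts do not measure how alike the knockouts are. Over all genes tested, 1370 of 17084 differed between the knockouts (8.02%). With a library left out this number was 291 to 679 for the Utx KO and Jmjd3 KO libraries. Of the 293 genes called in Utx KO over Tdt control, 64 differed without each of the 6 libraries in turn, and those named next were picked from them with their values in view. Adm had 23.9 and 22.7 CPM in Utx KO and 8.84 and 8.28 CPM in Jmjd3 KO (log2 difference 1.44, adjusted p = 0.000156). Igf2 had 70.5 and 61.9 CPM in Utx KO and 30.8 and 32.6 CPM in Jmjd3 KO (1.06, adjusted p = 0.00128), and Myf5 had 83.7 and 82.6 CPM in Utx KO and 59.2 and 58.0 CPM in Jmjd3 KO (0.50, adjusted p = 0.00276). In each the Utx KO libraries were higher. Epop had 25.9 and 24.3 CPM in Utx KO and 12.5 and 12 CPM in Jmjd3 KO (1.03), and over Tdt control its log2 fold change was 0.39 in Utx KO and -0.64 in Jmjd3 KO. Kbtbd12 was lower, with 1.82 and 1.63 CPM in Utx KO against 15 and 15.6 CPM in Jmjd3 KO. Mgll, Entpd4, Reln, Iigp1, Ccl7, Ctss, Mmp2, Dysf and Ngfr were also lower in Utx KO, and Rian, Musk and Adam12 higher.

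Hsp90b1, Hspa4l, Hsph1 and Hsp90aa1 were higher in Utx KO than in Jmjd3 KO by 0.31 to 0.47 on the log2 scale, and B2m, Cd74, Ifitm3, Susd5 and Ednra were lower by 0.75 to 1.79. The contrast did not pass for Cdc42bpa, at 102 and 88.6 CPM in Utx KO and 89.8 and 101 CPM in Jmjd3 KO, nor for Ddit4, Cdkn1b, Cdkn2d, Fgfr4, Itga3, Myod1 or Id1. Each of these genes was also called in Jmjd3 KO over Tdt control, in the same direction as in Utx KO. Both comparisons used the same Tdt control libraries, so the second call is no separate support. Of the 6 called histone genes of the list, Hist2h3c2 passed (log2 difference -0.31, adjusted p = 0.0304), with 4 of the 6 reduced fits ending that call. A p that misses the threshold does not show that the knockouts act alike at these genes.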

How the data were processed

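RNA of sorted satellite cells was sequenced in 6 libraries, 2 each of Utx KO, Jmjd3 KO and Tdt control. Listed without roles in the submitters' processing notes are Salmon 1.1.0, cutadapt 2.6, DESeq2 1.28.1 and the builds mm10 and GRCm38. Per the file headers, the deposited transcript tables hold the number of reads as an estimated count that need not be whole, and TPM scaled over effective length by the authors. The authors' deposited comparison table holds, per the file headers, a base mean (a signal of normalised counts), a log2 fold change, its standard error (a score here), and p-values.

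Estimated counts were summed per gene with GENCODE M21, rounded, and tested in all 6 libraries with edgeR 4.0.16 (TMM, default low-count filter, quasi-likelihood test, genotype as the only factor, Benjamini-Hochberg adjustment over 17084 genes, called at an adjusted p under 0.05) in R 4.3.3. The ± beside a log2 fold change is its standard error. Of 140748 transcripts 884 were not in M21 and were left out. The estimates come from libraries of 53750675 to 77675388 reads, whose number limits the precision of low genes. Transcript usage was tested with diffSpliceDGE. DESeq2 1.42.0, limma 3.58.1, other scalings, filters, length offsets and left-out libraries were the alternatives.

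Named were Kdm6a, Kdm6b and Uty, the 15 largest changes each way at a mean of 5 CPM or more, up to 4 called members of each of 48 gene lists (all where 5 or fewer were called), the 10 called genes of highest TPM and the 10 largest usage shifts at 5 TPM or more. The 15 largest changes were ranked among called genes whose groups did not overlap, without Gm numbers, Rik clones and pseudogenes. Further genes were picked with their values in view. The comparison, the lists and the members were chosen with earlier results of these data known. The labels do not say that replicate numbers mark a shared animal or batch.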

Additional observations from a re-analysis of the deposited data

How the results depend on the processing

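Against 293 genes called in Utx KO over Tdt control, the number was 1399 with no low-count filter, where 31164 genes were tested, 701 with DESeq2, 131 with transcript lengths as offsets, 119 with only the 4 libraries compared and 133 with the replicate number as a block. It was 16 to 96 with 1 library left out. It stayed within 1.5 times with RLE factors (300), upper-quartile scaling (293), a minimum of 5 CPM in 2 libraries (296) and protein-coding genes only (369). Deviations of same-numbered libraries of Utx KO and Tdt control correlated at -0.05 across genes. With 2 libraries a group, this single value showed no pairing by replicate number but cannot settle whether a small one exists. The 1370 genes called between Utx KO and Jmjd3 KO became 2856 with no filter and 291 to 1387 with a library left out. The 28 genes called for transcript usage became 10 with limma, 13 with a minimum share of 20%, 104 with the F test, 47 with the 4 libraries compared and 40 to 54 with a library left out. Each of the 293 called genes kept its direction in every alternative fit that gave it a value. The separation of their groups made this likely in advance. Where other counts moved, the cause was not tested. With 2 libraries a group, small changes at low levels could not be resolved.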
